A study of Gallus gallus with 24 samples.

Results

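MED27, ARID4B, SMARCAL1, HOXB3 and BEND7 are grouped here as regulators of transcription or chromatin, for SMARCAL1 and BEND7 only by sequence or a domain. The 5 genes had line ratios among the most extreme of the named genes in abdominal fat of growing chickens. They were taken by their symbols in the array's annotation, after their mean ratio between the lines was known. They occupy 6 of the 19200 spots of the array. MED27 has 2 spots and the other genes 1 each, and 5 of the 6 spots, 1 per gene, were measured often enough to be among the 16895 spots tested.

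Fat was taken from fed cockerels of the HG (high growth) and LG (low growth) lines, bred from a meat-type population for extremes of body weight at a juvenile and an adult age. Until 3 wk the lines were housed apart, per the methods, and LG birds ate their pellets crushed. Birds of the later ages had the same start, so line and early rearing cannot be told apart at any age. At each of 6 ages between 1 and 11 wk, 4 spotted cDNA arrays each compared RNA of 1 HG bird with that of 1 LG bird of the same age, so 24 HG and 24 LG birds were measured and n counts arrays. Birds of different arrays were separate animals. The red dye marked the HG bird on replicates 2 and 4 of each age and the LG bird on replicates 1 and 3.

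Every value below is a log2 ratio of HG over LG, relative to the median spot of its array, so that a negative value means less transcript in HG than in LG. That red stood over green in the deposited ratio is likely, from the dye that the labels give each bird, the wavelengths stated in the methods and the scanner software's definition of its ratio, and a turned ratio would exchange the lines throughout. Read this way, SCD, a lipid desaturase, was higher in HG on 24 of 24 arrays (mean 1.14). Gene names rest on reading the spot identifiers of the annotation with their last 2 numbers exchanged. In that order named spots were missing on 0.621 arrays on average, against 1.837 for unnamed spots. In the order as given these averages were 1.121 and 1.22. The 5386 pairs of spots for the same gene correlated with a mean r of 0.051, against 0.004 over 4858 pairs in the order as given. Both values are small, so spots of the same gene agreed weakly on average, which limits what 1 spot says of its gene. HOXB3 has the same identifier in both orders. A ratio gives no level, so neither the abundance of these genes nor the tissue label could be checked by level. In whole tissue, fewer cells of a type and less RNA per cell cannot be told apart.

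Mediator is a large protein complex that carries signals from transcription factors bound at enhancers to RNA polymerase II at promoters, and MED27 is a subunit near its tail. Chromatin regulators change how accessible the DNA is: the SIN3 corepressor, which ARID4B joins, brings histone deacetylases to genes. SMARCAL1 resembles the SWI/SNF remodellers in sequence, but its known work in mammals is to reanneal single-stranded DNA at stalled replication forks. HOXB3 is a homeobox transcription factor that gives cells a position along the body axis, and adipose depots are known to keep depot-specific patterns of HOX expression. BEND7 holds a BEN domain, a module found in proteins that bind DNA or chromatin.

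All 5 genes were chosen on their mean ratio over the ages, which is therefore a description with no test. In the same fit, limma called 418 of 16895 spots (2.47%), 165 higher (0.977%) and 253 lower in HG (1.5%), at an adjusted p under 0.05, and nothing about the members is read from that count. MED27 averaged -2.10 (SE 0.20, n = 24), a 4.30-fold lower signal in HG. ARID4B averaged 0.68 (SE 0.13), 1.60-fold higher in HG. SMARCAL1 averaged -0.52 (SE 0.08), BEND7 -0.52 (SE 0.08) and HOXB3 -0.47 (SE 0.08), which put HG at 1.43-fold, 1.43-fold and 1.38-fold below LG. Among 6183 named genes MED27 had the lowest mean ratio and ARID4B the 6th highest, while SMARCAL1, BEND7 and HOXB3 were the 42nd, 43rd and 59th lowest. There, genes with several tested spots entered as their average, and each member entered with 1 spot. A mean beyond 1 in either direction was found for 41 of the 16895 tested spots, named or not, and for 8 genes. Without the arrays of 1 and 3 wk the means were -2.23 for MED27, 0.59 for ARID4B, -0.51 for SMARCAL1, -0.50 for HOXB3 and -0.66 for BEND7. The birds of the later ages had also been housed apart by line until 3 wk.

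MED27 had the largest ratio of the 5 and also the widest spread. Its 4 arrays gave -2.89, -1.89, -1.84 and -1.93 at 1 wk, replicates 1 to 4 in order here and below, and -0.27, -0.96, -2.23 and -2.78 at 3 wk. At 5 wk they gave -0.61, -3.59, 0.12 and -1.67, and at 7 wk -2.37, -3.17, -0.84 and -3.50. The last ages gave -2.28, -3.12, -2.55 and -1.38 (9 wk) and -3.64, -1.70, -2.75 and -2.66 (11 wk). HG was lower on 23 of the 24 arrays, the exception being replicate 3 at 5 wk. The other arrays nearest to no difference lay at 3, 5 and 7 wk (-0.27, -0.61 and -0.84). Like that exception they had the LG bird in red, while the next, at -0.96 (3 wk), had the HG bird in red. On 20 arrays the spot was among the lowest 5% of all measured spots and on 6 among the lowest 1%. The age means were -2.14 ± 0.70 at 1 wk, -1.56 ± 1.09 at 3 wk, -1.44 ± 1.37 at 5 wk, -2.47 ± 0.95 at 7 wk, -2.33 ± 0.82 at 9 wk and -2.69 ± 1.03 at 11 wk (SD after removal of the dye coefficient, n = 4 each). These correspond to a signal 4.40, 2.95, 2.71, 5.53, 5.04 and 6.45 times lower in HG. In the order from the lowest mean, 11, 7, 9, 1, 3 and 5 wk, no neighbouring ages differed by more than the larger of their SDs. The residual SD of 1.05 exceeded that of 89.3% of the tested spots.

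**Figure D1:**
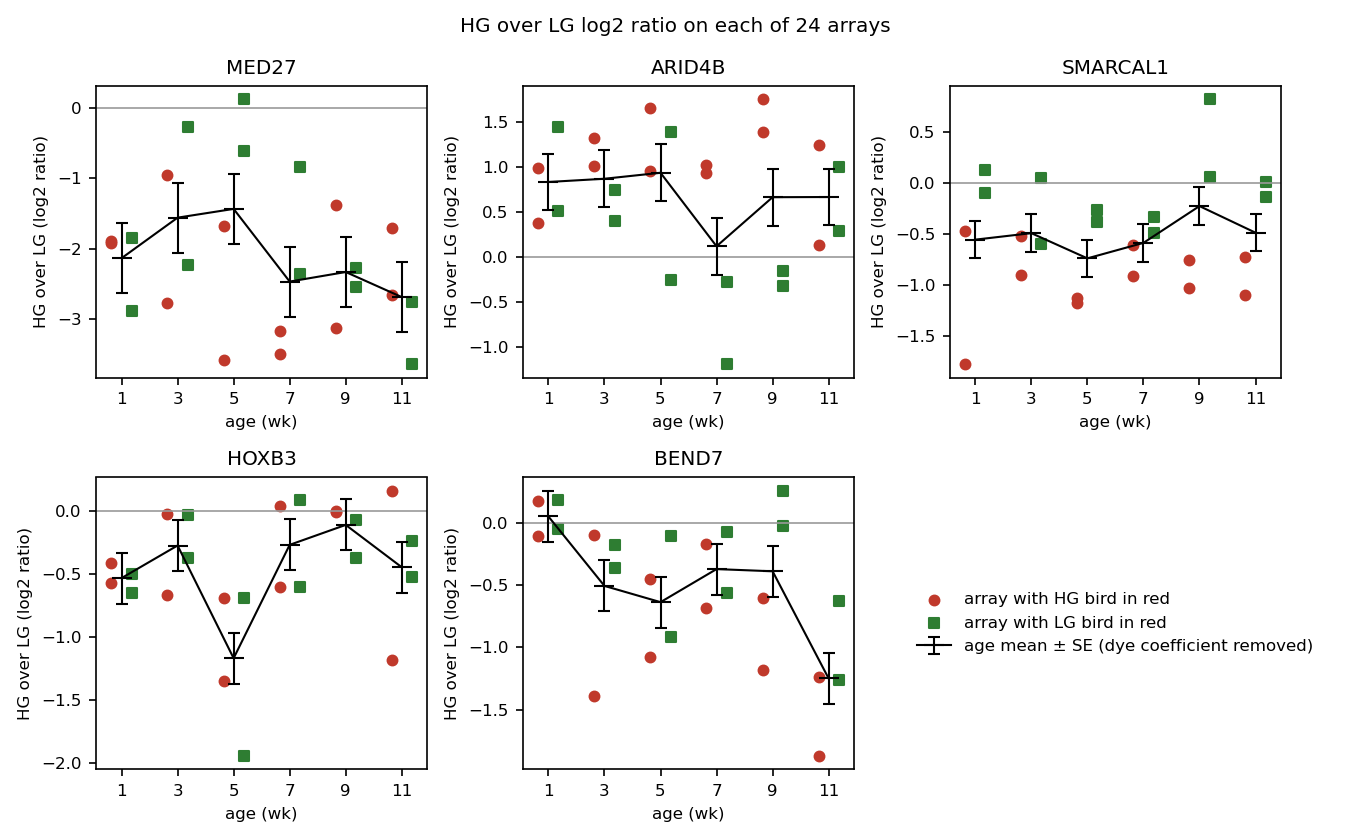
HG over LG log2 ratio (y axis) of each gene's tested spot against age in wk (x axis), 1 panel per gene with its own y scale; red circles are arrays with the HG bird in red, green squares arrays with the LG bird in red, and black bars the age mean ± SE of the fit (n = 4). MED27 lies below 0 on 23 of 24 arrays, HOXB3 reaches its lowest age mean at 5 wk (-1.17) and BEND7 its lowest at 11 wk (-1.25).

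The second MED27 spot gave no stable line ratio. It was measured on 14 of the 24 arrays, on 1 to 4 arrays of an age and on at least 3 at 2 ages, so it was not tested. Its ratio was -0.77, -4.66 and 2.18 on replicates 2, 3 and 4 at 1 wk, and -1.92, 0.82, -5.39 and 3.45 on the 4 arrays of 11 wk. The sign followed the dye: red was the stronger colour on 12 of the 14 arrays, green on 1 and neither on 1. Arrays with the HG bird in red averaged 2.14 ± 1.58 and those with the LG bird in red -3.03 ± 1.91 (SD, n = 7 each), and the mean of the 2 orientations was -0.44. The spot was missing on 10 arrays, and intensities were not used, so whether its signal lay near background was not tested. It can therefore neither repeat nor contradict the ratio of the first spot. The line ratio of MED27 thus rests on 1 spot, and whether both spots measure the same transcript was not tested.

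ARID4B, a subunit of SIN3 corepressors, was the only one of the 5 with a higher mean signal in HG. It gave 1.44, 0.99, 0.51 and 0.38 at 1 wk and 0.74, 1.32, 0.40 and 1.00 at 3 wk, all above 0. At 5 wk its values were -0.26, 1.65, 1.38 and 0.95, and at 7 wk -0.28, 0.93, -1.19 and 1.01. At 9 wk they were -0.33, 1.75, -0.16 and 1.39, and at 11 wk 1.00, 1.24, 0.29 and 0.13. HG was higher on 19 arrays and lower on 5, and all 5 had the LG bird in red, including both such arrays at 7 and at 9 wk. Age means were 0.83 ± 0.76 at 1 wk, 0.87 ± 0.21 at 3 wk, 0.93 ± 0.73 at 5 wk, 0.12 ± 0.66 at 7 wk, 0.66 ± 0.62 at 9 wk and 0.66 ± 0.68 at 11 wk (SD, n = 4 each). The mean was lowest at 7 wk (1.09-fold higher in HG), and no neighbours in the order of means differed by more than the larger SD.

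SMARCAL1, the annealing helicase, was lower in HG on 19 arrays and higher on 5. Its values were -0.10, -1.78, 0.12 and -0.47 at 1 wk and 0.05, -0.52, -0.60 and -0.91 at 3 wk. At 5 wk it gave -0.38, -1.14, -0.27 and -1.18, and at 7 wk -0.34, -0.61, -0.49 and -0.92. At 9 wk it gave 0.05, -0.75, 0.82 and -1.03, and at 11 wk 0.01, -1.10, -0.14 and -0.73. Every one of the 5 arrays above 0 had the LG bird in red, as for the arrays of ARID4B below 0. Age means were close to each other: -0.56 ± 0.57 at 1 wk, -0.49 ± 0.38 at 3 wk, -0.74 ± 0.05 at 5 wk, -0.59 ± 0.31 at 7 wk, -0.23 ± 0.44 at 9 wk and -0.49 ± 0.17 at 11 wk (SD, n = 4 each). No neighbours in their order differed by more than the larger SD.

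HOXB3, the homeobox gene, was lower in HG on 21 of 24 arrays, and its ratio was largest at 5 wk. It gave -0.50, -0.42, -0.65 and -0.57 at 1 wk and -0.37, -0.03, -0.04 and -0.67 at 3 wk. At 5 wk it gave -1.94, -1.35, -0.69 and -0.69, so that each array of that age lay below all 4 arrays of 1 wk. At 7 wk it gave 0.09, -0.61, -0.60 and 0.04, at 9 wk -0.07, -0.0005, -0.37 and -0.01, and at 11 wk -0.53, 0.16, -0.24 and -1.19. The age mean was -1.17 ± 0.60 at 5 wk, a 2.25-fold lower signal in HG, and between -0.53 ± 0.09 (1 wk) and -0.11 ± 0.16 (9 wk) at the other ages (SD, n = 4 each). The step between 5 wk and the next age in order, 1 wk, was 0.63, just over the larger SD of 0.60. The median of the hepatocyte marker list was also lowest at that age, at -0.79, and between -0.46 and -0.06 at the other ages. Single markers differed: ALB was lowest at 5 wk (-1.47), but others, among them FGA (-1.51) and F2 (-2.62), at 7 wk. The medians of the adipocyte (-0.06) and endothelial (-0.11) lists were lowest at 5 wk too. The part of these cell types in the HOXB3 ratio was not tested.

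BEND7, the BEN domain gene, was near equal in the lines at 1 wk and lower in HG at every later age. It gave -0.05, 0.18, 0.18 and -0.10 at 1 wk and -0.17, -0.09, -0.36 and -1.39 at 3 wk. At 5 wk it gave -0.92, -0.45, -0.10 and -1.08, at 7 wk -0.56, -0.68, -0.07 and -0.17, and at 9 wk -0.02, -1.18, 0.26 and -0.60. At 11 wk all 4 arrays, at -1.26, -1.87, -0.63 and -1.24, lay below the 4 arrays of 1 wk. Age means were 0.05 ± 0.27 at 1 wk, -0.51 ± 0.54 at 3 wk, -0.64 ± 0.43 at 5 wk, -0.37 ± 0.34 at 7 wk, -0.39 ± 0.43 at 9 wk and -1.25 ± 0.38 at 11 wk (SD, n = 4 each), the last a 2.38-fold lower signal in HG. In their order 11 wk stood apart from 5 wk by 0.61 (larger SD 0.43) and 7 wk from 1 wk by 0.42 (larger SD 0.34), while 5, 3, 9 and 7 wk did not differ beyond their spread.

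Whether the line ratio changed with age is a question the choice of members did not use. In limma's moderated F test over the ages 0 of 16895 spots passed (0%), with 769 at an unadjusted p under 0.05. BEND7 had an unadjusted p of 0.00814 and an F above that of 99.1% of spots, but an adjusted p of 0.876. HOXB3 had an unadjusted p of 0.0222, an F above 97.7% of spots and an adjusted p of 0.967, and MED27, ARID4B and SMARCAL1 had adjusted p-values of 1.00. A linear trend with age passed for 0 of 16895 spots (0%), with 753 at an unadjusted p under 0.05. The ratio of BEND7 changed by -0.08 per wk (SE 0.02, limma unadjusted p = 0.00272, adjusted p = 0.754), and the other slopes lay between -0.09 (MED27, SE 0.06) and 0.03 (HOXB3). No change of line ratio with age was thus established for any of the 5. The intervals show what remains possible: 11 wk minus 1 wk was -1.30 for BEND7 (95% interval -1.91 to -0.70, for this gene alone and uncorrected), 0.09 for HOXB3 (-0.51 to 0.68), 0.07 for SMARCAL1 (-0.48 to 0.61), -0.17 for ARID4B (-1.10 to 0.77) and -0.55 for MED27 (-2.03 to 0.92). Between the ages of lowest and highest mean, HOXB3 differed by 1.06 (9 minus 5 wk, 0.46 to 1.65) and SMARCAL1 by 0.51 (9 minus 5 wk, -0.03 to 1.06). ARID4B differed by -0.81 (7 minus 5 wk, -1.75 to 0.12) and MED27 by -1.25 (11 minus 5 wk, -2.73 to 0.22). Those ages were picked for their extreme means, which for BEND7 were 1 and 11 wk, and the intervals are uncorrected.

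The ratios of 3 of the 5 genes also depended on which line carried the red dye. The dye coefficient, the mean with HG in red minus that with LG in red, passed in limma for 8289 of 16895 spots (49.1%), so a dye call was common on these arrays. SMARCAL1 averaged -0.93 ± 0.36 with HG in red and -0.11 ± 0.37 with LG in red (SD, n = 12 each), a coefficient of -0.82 (SE 0.15, adjusted p = 0.000184). HG was lower on all 12 arrays of the first kind and on 7 of the 12 of the second. ARID4B averaged 1.06 ± 0.47 with HG in red, above 0 on 12 of 12, and 0.30 ± 0.78 with LG in red, above 0 on 7 of 12 (coefficient 0.77, SE 0.26, adjusted p = 0.0190). When each print block of the array was centred on its own median, ARID4B averaged 0.81 ± 0.45 and 0.55 ± 0.79 in those groups, was above 0 on 22 of 24 arrays, and its dye call was lost (coefficient 0.25, adjusted p = 0.431).

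BEND7 averaged -0.72 ± 0.63 with HG in red and -0.31 ± 0.45 with LG in red (coefficient -0.42, SE 0.17, adjusted p = 0.0464), a call that 15 of the 24 omissions of a single array removed (adjusted p of at most 0.0875). MED27 averaged -2.36 ± 0.88 with HG in red and -1.85 ± 1.17 with LG in red (coefficient -0.52, SE 0.41, adjusted p = 0.310). HOXB3 averaged -0.45 ± 0.49 with HG in red and -0.49 ± 0.52 with LG in red (coefficient 0.05, SE 0.16, adjusted p = 0.830). Its coefficient turned negative with each print block centred (-0.23, adjusted p = 0.209, with means of -0.56 and -0.33) and with values not centred (-0.13, adjusted p = 0.560). With each array centred on its median, each gene kept the sign of its mean in both orientations. The mean of SMARCAL1 with LG in red was small beside its spread (-0.11 ± 0.37). With values not centred it was slightly positive, over arrays that ran from -0.548 to 0.912, so the sign of SMARCAL1 in that orientation depended on the centring.

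**Figure D2:**
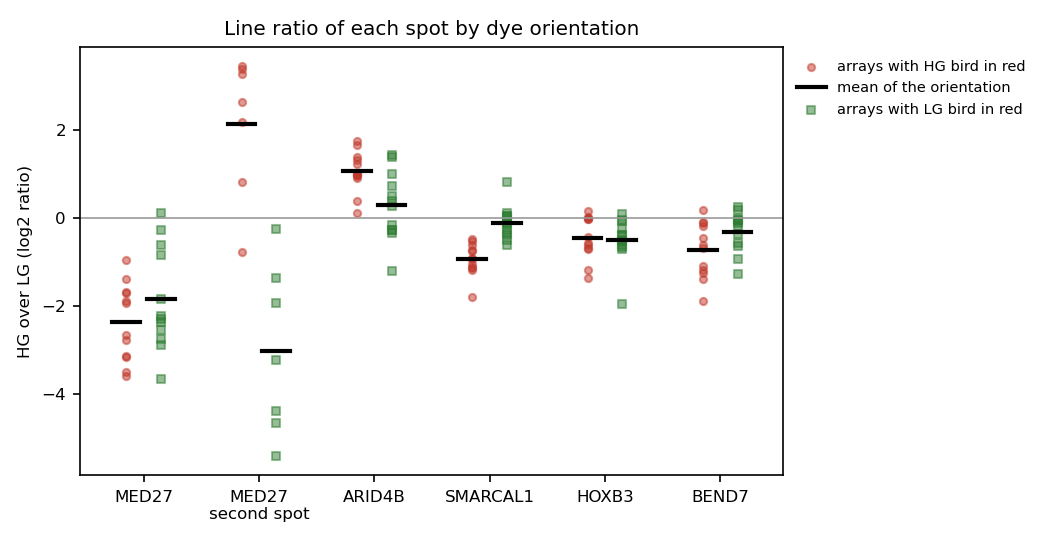
HG over LG log2 ratio (y axis) of each of the 6 spots (x axis), with arrays that had the HG bird in red as red circles on the left, arrays with the LG bird in red as green squares on the right, and black bars at the mean of each. The second MED27 spot changes sign with the dye (2.14 and -3.03), and SMARCAL1 averages -0.93 and -0.11.

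No correlation between the 5 genes from array to array passed a test. Over the 24 arrays, with the dye coefficient removed, Pearson's r between pairs ran from -0.20 (MED27 and SMARCAL1, permutation p = 0.360, with Spearman's rho of -0.19, permutation p = 0.374) to 0.16 (MED27 and BEND7, permutation p = 0.464, with rho of 0.07, permutation p = 0.743). None of the 10 pairs passed (adjusted p 0.878 to 0.924 for r and 0.955 to 0.985 for rho). With the 2 arrays farthest from the median of the first gene of a pair left out, r ran from -0.39 (MED27 and ARID4B, -0.09 with all arrays) to 0.29 (SMARCAL1 and BEND7, 0.12 with all arrays). Within ages, with the age means removed as well, ARID4B and HOXB3 gave r of 0.47 (permutation p = 0.0206, adjusted p = 0.206) and rho of 0.37 (permutation p = 0.0768, adjusted p = 0.384), and r was 0.46 without the 2 farthest arrays. The permutations exchanged all 24 arrays freely after that removal, so these within-age p-values tend to be too small.

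The genes most like each member over the arrays were taken from 5662 named genes by Pearson's r of the dye-corrected ratio over the 24 arrays. They are the extremes of many values and carry no test, and the points share the arrays and their centring. MED27 was most like HSPD1, the mitochondrial chaperonin (r 0.67), DSG2, a desmosomal cadherin (0.57), and HEATR5B (0.57), and least like TERF2, a telomere-binding protein (-0.72). HSPD1 itself was lower in HG (-0.32, SE 0.05, limma adjusted p = 0.000712). ARID4B was most like MEGF6 (0.83), RAD51C, a recombination protein (0.77), and MFSD14A (0.75), and least like LOC776273 (-0.72). SMARCAL1 was most like PRR33 (0.83), AKAIN1 (0.81) and LPAR6, a receptor for lysophosphatidic acid (0.79), and least like TMEM35A (-0.70). Of these, PRR33 (-0.29, SE 0.06, adjusted p = 0.0142) and LPAR6 (-0.40, SE 0.06, adjusted p = 0.00115) were also called lower in HG by limma.

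HOXB3 was most like EBF3, a transcription factor of the early B-cell factor family (0.77), KCNK4, a potassium channel (0.73), and SELENBP1 (0.71), and least like DHRS11 (-0.74). Without the 2 arrays farthest from the median of HOXB3, r was 0.28 for SELENBP1, 0.54 for EBF3, 0.58 for KCNK4 and -0.45 for DHRS11. The same omission left r between 0.54 and 0.77 for the most like genes of the other 4 members and between -0.66 and -0.50 for the least like. BEND7 was most like HSD17B12, the reductase of fatty acid elongation (0.74), CNP (0.71) and B2M, the invariant chain of class I antigen presentation (0.66), and least like ARPC2, an actin-nucleating subunit (-0.73). B2M was called lower in HG (-0.49, SE 0.11, limma adjusted p = 0.0155). With each print block centred, these 20 values of r lay between 0.51 and 0.83 for the high end and between -0.77 and -0.50 for the low end, and KCNK4 alone shared the print block of its member. The most like genes given without a line ratio were not called, and limma called 2.04% of all named genes. HEATR5B (0.01), RAD51C (-0.06), MFSD14A (-0.01), SELENBP1 (0.25) and HSD17B12 (0.17) had mean line ratios of the opposite sign to those of their members.

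The partners and relatives of the members were taken from lists of complexes and families. Over 9 such lists, 63 measured genes other than the members had 0 calls in either direction in the mean line ratio, beside 126 of 6183 named genes (2.04%) called by limma at the gene level, 57 higher (0.922%) and 69 lower in HG (1.12%). Of the 63, 7 had an unadjusted p under 0.05, beside 757 of all genes (12.2%). Their median was 0.02 (38 above 0 and 25 below), the same as the median of 0.02 over all genes, and their range was -0.39 to 0.23. These shares lie near those of all genes, and the absence of calls does not show that the lines were equal. In the test over the ages none of the 63 was called either, beside 2 of all 6183 genes (0.0323%). Of the 63, 1 had an unadjusted p under 0.05 in that test, beside 301 of all 6183.

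Of Mediator and its kinase module, 14 of 33 listed genes were measured beside MED27, with a median of -0.03. MED17, a subunit of the Mediator head, had the lowest ratio (-0.39, SE 0.32, limma adjusted p = 0.690) and MED9, of the middle module, the highest (0.21, SE 0.17, adjusted p = 0.695). For RNA polymerase II, 5 of 12 subunits had a median of 0.05, with POLR2B, the second largest subunit, at 0.10 (SE 0.04, adjusted p = 0.232) and POLR2D at 0.05. The other SIN3 corepressor genes, 13 of 24, had a median of 0.03. SAP30L, an adaptor of the complex, gave 0.15 (SE 0.07, adjusted p = 0.392) and SAP130 0.08. Of the ARID family 3 of 14 were measured, among them KDM5B, a histone demethylase (-0.18, adjusted p = 0.317), and ARID1A, a SWI/SNF subunit (0.11, adjusted p = 0.125).

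For SMARCAL1 the relatives were the SWI/SNF and SMARC genes, 11 of 27 measured, with 9 above 0 and a median of 0.03. SS18 gave 0.16 (SE 0.07, limma adjusted p = 0.290) and SMARCB1, a core SWI/SNF subunit, 0.14 (SE 0.06, adjusted p = 0.322). Its functional neighbours at the replication fork, 6 of 19, had a median of 0.06, with SHPRH, a ubiquitin ligase, at 0.23 (SE 0.22, adjusted p = 0.734) and RPA1, a subunit of the single-strand binding protein that recruits SMARCAL1 in human cells, at 0.16 (SE 0.08, adjusted p = 0.411). Of the HOX genes 4 of 52 were measured beside HOXB3, from -0.08 (HOXA6) to 0.08 (HOXA7), and of the TALE cofactors that bind DNA with HOX proteins 4 of 11, with MEIS2 at 0.06 and PKNOX2 at 0.05. The BEN domain list had 3 of 9, with NACC2 at -0.01, BANP at -0.0028 and BEND5 at 0.0028.

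**Figure D3:**
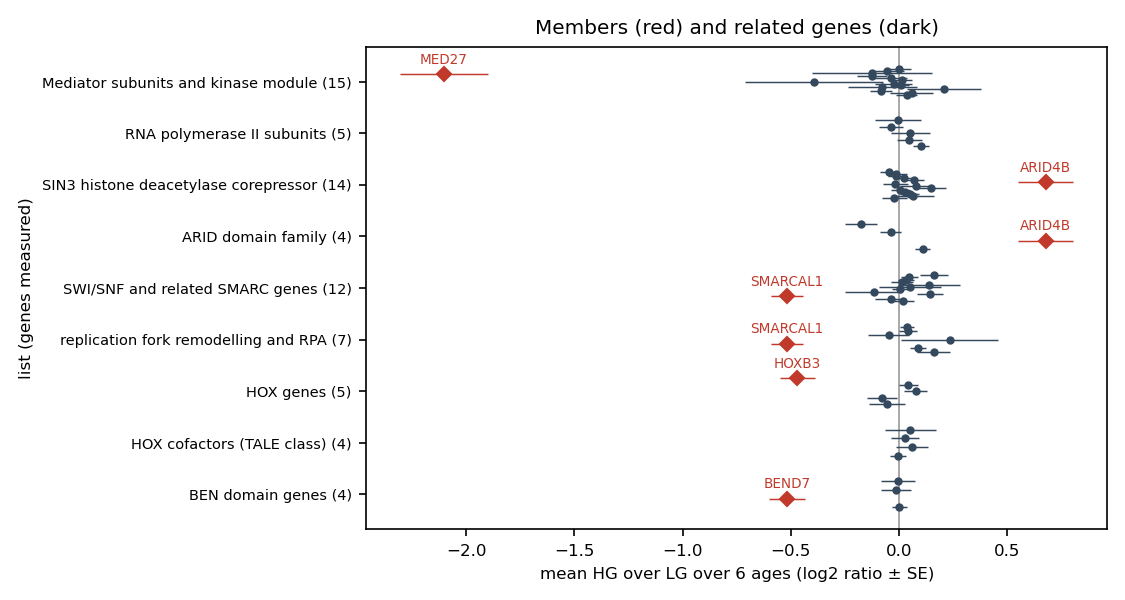
Mean HG over LG log2 ratio over the 6 ages ± SE (x axis) for each measured gene of the 9 lists (y axis, with the number measured, members included); red diamonds are the members and dark points the other genes. The 63 other genes lie between -0.39 and 0.23, with the members at -2.10 to 0.68.

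The nearest measured genes on the chromosome were compared too, a set chosen after the members' values were seen. By the gene order of the assembly GRCg7b, MED27 lies on chromosome 17, ARID4B on 3, SMARCAL1 on 7, HOXB3 on 27 and BEND7 on 1, and the 3 measured genes on each side made 30 neighbours. None of the 30 was called by limma, beside 2.04% of all named genes, and 5 had an unadjusted p under 0.05, beside 12.2% of all. Their median was 0.01, with 17 above 0. RAPGEF1 and NTNG2, next to MED27, stood at 0.01 and -0.04, and all 6 neighbours of MED27 lay between -0.10 and 0.12. HOXB2, which follows HOXB3 among the measured genes of its cluster, stood at 0.04. The largest ratios were those of CCDC3 (0.27, SE 0.25, adjusted p = 0.729) and PHYH (-0.27, SE 0.08, adjusted p = 0.117), both near BEND7, and TOMM20, near ARID4B, gave 0.25 (SE 0.11, adjusted p = 0.345).

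**Figure D4:**
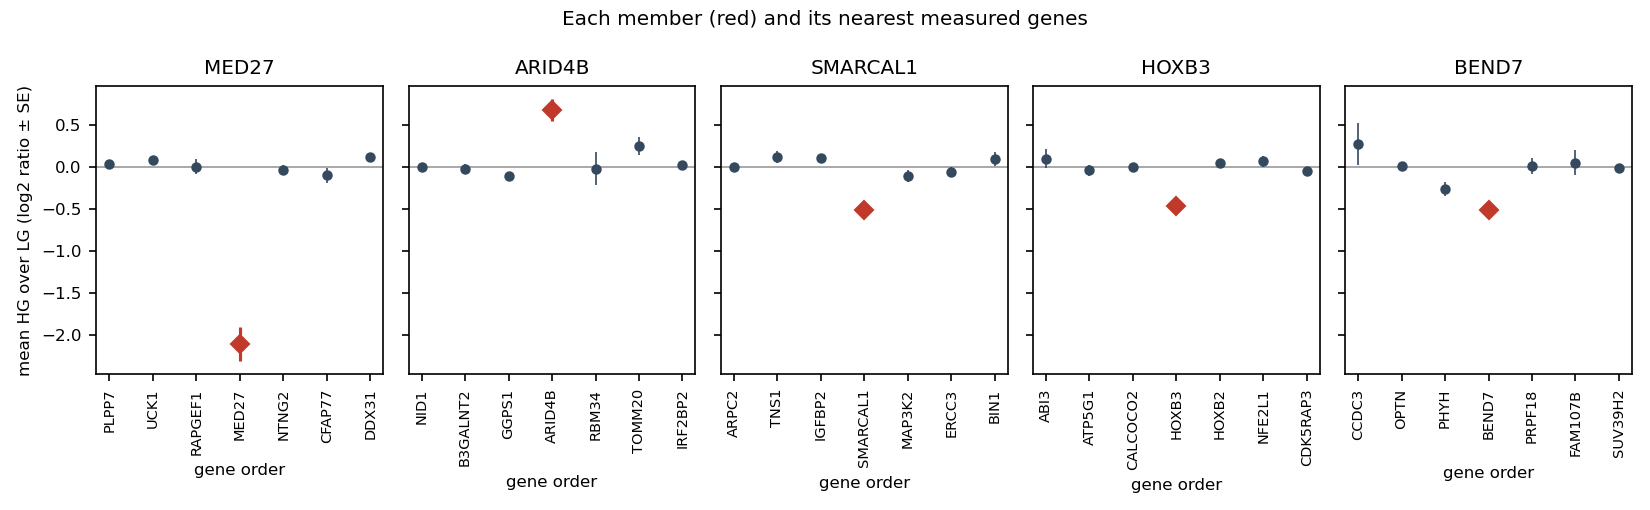
Mean HG over LG log2 ratio over the 6 ages ± SE (y axis) of each member (red diamond) and of the 3 nearest measured genes on each side in gene order (dark points, x axis), 1 panel per member with a shared y axis. The 30 neighbours lie between -0.27 and 0.27.

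Markers of cell types in and around the depot, and the measured range of the arrays, may bear on these ratios. Of 10 adipocyte genes 3 were called higher in HG by limma, the lipid synthesis genes SCD (1.14), FASN (0.37) and DGAT2 (0.33), and the list's median was 0.08. Of 13 hepatocyte markers 12 were below 0 (median -0.38, APOA1 called at -0.25, adjusted p = 0.0347), and their median per array ran from -1.70 to 1.00, below 0 on 18 arrays. All 7 smooth muscle markers were below 0 (median -0.10, MYL9 called at -0.52, adjusted p = 0.0296) and all 7 skeletal muscle markers above 0 (median 0.08, CASQ2 alone called at 0.24, adjusted p = 0.00856). Of the smooth muscle markers, ACTA2 (-0.01) and SMTN (-0.0001) lay close to 0. Before removal of the dye coefficient CASQ2 was higher in HG on 13 of 24 arrays. Over all named genes limma called 2.04%, and 42.7% had a mean ratio below 0. Erythrocyte (3 measured), leukocyte (7) and endothelial (9) markers had 0 calls and medians of 0.01, -0.10 and -0.03. An unadjusted limma p under 0.05 was found for 4 leukocyte markers and 0 of the others, beside 12.2% of all genes. Among the 4, CD3E (-0.20) and C1QC (-0.35) lay below 0 and CSF1R (0.09) and HCLS1 (0.28) above. The part of these cell types in the members' ratios was not tested. Between 17380 and 18529 spots were measured per array, and the number of arrays limits the precision.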

How the data were processed

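The deposited values were log2 ratios, read as red over green, for 19200 spots on each of 24 arrays. The authors' methods describe manual removal of poor spots, LOWESS normalization and a 2-way analysis of variance, but array medians of the deposited log2 ratios ran from -0.336 to 0.32, so these values were not LOWESS-normalized. Values with no ratio (4.38%) or at the software's ceiling of 16.61 (0.48%) were set to missing. Intensities were not used here. Each array's median was subtracted, and the sign of replicates 1 and 3 was changed, which gives HG over LG. The fit used limma 3.58.1 (R 4.3.3) on the 16895 spots that had 3 or more arrays at each age, with 6 age coefficients and 1 dye coefficient, and p-values were adjusted by Benjamini-Hochberg over all spots (or genes), with a threshold of 0.05. Spots of a symbol were averaged to 6183 genes, and a symbol that stood at 95 spots, STUB1, was left out. SD values were computed after removal of the dye coefficient, except those given per dye orientation. Pairs of members were tested with 100000 permutations. The fit was tested on simulated data.

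The members and the gene lists were chosen with earlier results of these data known. Named genes were all member spots, for each member the 3 named genes with the highest r and the 1 with the lowest, and of each list the called genes and up to 2 with the largest ratio; chromosomal neighbours, and HOXB2 and BEND5 with the lists, were added after the values were seen. Spot names came from the platform's annotation, with 1 symbol for 10601 spots and none for 8599, and 98.6% of the named spots had a current gene identifier. Alternatives were other centring, scaling, filters, weights and variance priors, a replicate block, no dye coefficient, single dye orientations, the other identifier order and leaving out each array.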

Additional observations from a re-analysis of the deposited data

Results flagged for a closer look

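Among 30 groups of 4 arrays (5 genes at 6 ages), 1 held an array that stood apart from the other 3 by Dixon's criterion, where chance gives about 1 in 20. HOXB3 at 9 wk gave -0.3488 on replicate 3 after removal of the dye coefficient (-0.37 as measured), while the other 3 arrays of that age, at -0.07, -0.0005 and -0.01 as measured, lay close to 0. The criterion was applied after that removal (gap over range 0.932, critical value 0.829), and the values as measured fall short of it. The dye coefficient of HOXB3 was itself not called (limma adjusted p = 0.830).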

How the results depend on the processing

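Each member kept the sign of its mean under every alternative run, except BEND7 with spot identifiers in the order as given, where other spots take all names but that of HOXB3: MED27 then gave -0.0606, SMARCAL1 -0.0556, ARID4B 0.03 and BEND7 0.000313. Leaving out 1 array moved MED27 between -2.18 and -1.99, ARID4B between 0.62 and 0.73, SMARCAL1 between -0.55 and -0.47, HOXB3 between -0.50 and -0.42 and BEND7 between -0.55 and -0.48. SMARCAL1 gave -0.93 on the 12 arrays with HG in red alone and -0.11 on those with LG in red.

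The 418 spots called for the mean ratio became 158 without the dye coefficient (60 higher, 98 lower) and 179 with a trended, robust variance prior (58 and 121), 308 uncentred (154 and 154), 514 with array weights (256 and 258), and 314 to 499 without 1 array. Against 0 spots called over the ages there were 4 uncentred, 5 with print blocks centred, 6 for spots on all 24 arrays, 4 without the dye coefficient and 0 to 9 without 1 array (9 without replicate 4 of 5 wk, 2 without replicate 1 of 11 wk). No member passed over the ages or for the trend under any of them. The ARID4B dye call was lost uncentred (adjusted p = 0.0694), with print blocks centred (0.431) and with arrays scaled (0.0516), and that of BEND7 with array weights (0.0813), with the robust prior (0.0959) and without 1 and 3 wk (0.0542). The BEND7 coefficient was larger in size uncentred (-0.59, limma adjusted p = 0.00277) and with print blocks centred (-0.50, limma adjusted p = 0.00471). With 1 probe per gene, 1 Mediator gene was called (MED12, 0.11) against 0, and 0 hepatocyte markers against 1. The causes were not tested.

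Arrays of the same replicate number at different ages correlated with a mean r of -0.064 over 60 pairs, against 0.021 over 180 pairs of different number. Of the 24 arrays, 0 correlated best with their own number. The dye coefficient and the age means had been removed first, which by itself lowers r between arrays of the same dye orientation. Arrays of the same number share their orientation, so these values cannot show whether replicate numbers pair the arrays. With the replicate block, 356 spots were called for the mean ratio and 6 over the ages, and the members' adjusted p over the ages was 0.96 to 1.00.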
